A study of Komagataella phaffii CBS 7435 with 54 samples.

Results

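Isocitrate lyase (ICL1, PAS_chr1-4_0338) and the main alcohol dehydrogenase (ADH2, PAS_chr2-1_0472) were followed in the yeast Pichia pastoris (Komagataella phaffii) from growth in glucose-limited chemostats to near-zero growth in retentostats. The members were the probes whose systematic name on the array was that of either gene, which gave 2 probes for 2 genes out of 5371 probes with 5318 systematic names. Isocitrate lyase splits isocitrate into glyoxylate and succinate and opens the glyoxylate shunt, by which yeasts build 4-carbon acids from acetyl coenzyme A when they live on acetate or ethanol. Alcohol dehydrogenases interconvert acetaldehyde and ethanol. In Saccharomyces cerevisiae, where this control is best known, ICL1 and ADH2 are both repressed by excess glucose and derepressed when glucose runs low, and glucose limitation keeps residual glucose low.

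The strain was CBS 7435 in the sample labels. According to the paper the cultures were of a Δflo8 mutant of that strain, which lacks a transcription factor of flocculation, was made with a drug resistance marker and stems from a single isolate, so that every condition, including the one used as the baseline, carried the deletion. The 9 conditions were chemostats at dilution rates of 0.1, 0.075, 0.05 and 0.025 h-1, grown aerobically on glucose, and retentostats sampled after 21 h (day 1), 65 h (day 3), 116 h (day 5), 380 h (day 16) and 545 h (day 23). In a retentostat the cells are held back by a filter while medium runs through, so that growth slows as biomass builds up. Each condition had 3 numbered replicates and each replicate a pair of 2-color arrays, with the culture in Cy3 on one and in Cy5 on the other, against a reference pool of cells from many growth conditions. The study describes duplicate chemostats and a pair of retentostats, so the 3 replicates cannot all be separate cultures, and SD, n = 3 and p values refer to these numbered replicates, whose spread may be partly technical. The retentostat days are repeat samples of the same vessels, and which replicate came from which vessel is not given, so comparisons and trends between days treat as independent what was drawn from a pair of cultures. The retentostats ran in other bioreactors than the chemostats, and system and growth rate cannot be told apart between the systems.

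All values are log2 ratios of culture over pool after LOESS normalization, so that 0 means the level of the pool and 1 means 2-fold above it. They are relative to the RNA that was labeled, and a difference in total mRNA per cell could not be seen in them. The 54 arrays lay on 9 slides in 3 scan batches, and in the culture channel 89.9 to 98.4% of probes per array stood well above background. For each gene, the 2 spots per array were well above background in both channels on all 54 arrays, and no spot was saturated or marked as an outlier. The median spot signal of ICL1 in the culture channel was 40992 (16532 to 93578). That of ADH2 was 182694 (72691 to 388646), and its probe was the 6th brightest of the 5371.

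ICL1 and ADH2 both rose as growth slowed in the chemostats, and they parted in the retentostats. ICL1 was 3.37-fold above the chemostat at 0.1 h-1 on day 1 and 4.75-fold above it on day 23. ADH2 was 2.09-fold above the same baseline on day 3, its highest point, and 1.53-fold above it on day 23.

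ICL1 was above the pool in every replicate of every condition. At 0.1 h-1 the log2 ratios of ICL1 were 0.86, 0.79 and 0.82, and at 0.075 h-1 they were 0.92, 0.87 and 0.93. At 0.05 h-1 they were 1.02, 0.86 and 1.15, the widest spread of ICL1 in any condition (SD 0.14, n = 3). At 0.025 h-1 they were 1.77, 1.65 and 1.61. The 3 faster chemostats thus lay within 0.79 and 1.15, and all replicates at 0.025 h-1 were above that range. How many of all probes separate between conditions was not counted, so here and below such separation only describes the values.

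In the retentostats the log2 ratios of ICL1 were 2.50, 2.61 and 2.61 on day 1. They were 2.78, 2.54 and 2.78 on day 3, and 2.72, 2.78 and 2.75 on day 5. Days 1, 3 and 5 overlapped from day to day. On day 16 the values were 2.99, 2.94 and 2.84, and on day 23 they were 3.02, 3.04 and 3.14, where every replicate exceeded every earlier one. The lowest retentostat value, 2.50, was above the highest chemostat value, 1.77.

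ADH2 started below the pool. Its log2 ratios were -0.39, -0.36 and -0.36 at 0.1 h-1, and -0.18, -0.27 and -0.11 at 0.075 h-1. At 0.05 h-1 they were -0.01, -0.06 and 0.08, which is the level of the pool. At 0.025 h-1 they were 0.34, 0.43 and 0.18. No replicate of a slower chemostat reached down to those of the next faster one. This holds for the means of dye pairs only. Single arrays ran from -0.81 to 0.10 at 0.1 h-1 and from -0.41 to 0.05 at 0.075 h-1. The share of all probes that separate likewise was not counted.

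In the retentostats the log2 ratios of ADH2 were 0.15, 0.40 and 0.27 on day 1, within the range found at 0.025 h-1 or just below it. They were 0.76, 0.58 and 0.74 on day 3 and 0.61, 0.67 and 0.57 on day 5. On day 16 they were 0.39, 0.35 and 0.41, and on day 23 they were 0.21, 0.23 and 0.28. Days 3 and 5 overlapped with each other and stood above all other conditions, and days 16 and 23 were back at the levels of day 1, between 0.21 and 0.41.

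**Figure D1:**
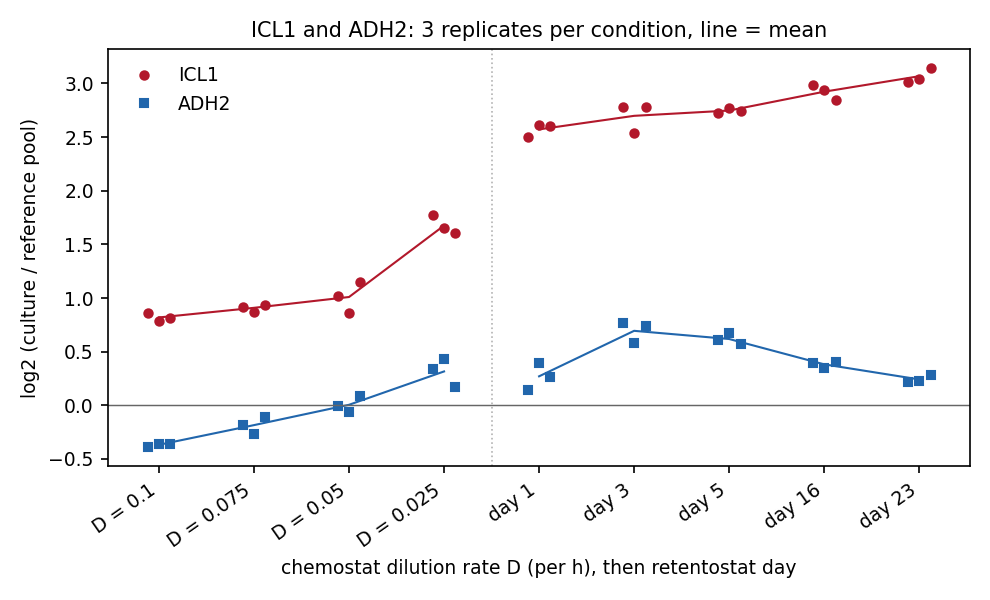
Log2 ratio of culture over reference pool (vertical axis) of ICL1 and ADH2 in the 9 conditions (horizontal axis), with 1 point per replicate and lines through the condition means within each culture system. ICL1 steps up at 0.025 h-1 and again on day 1 and ends at 3.07, whereas ADH2 is highest on day 3 at 0.69 and falls back to 0.24 on day 23.

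Against the chemostat at 0.1 h-1, the baseline that the study used for all conditions, a gene counted as changed at an adjusted p value below 0.05 (limma, Benjamini-Hochberg over all 5371 probes) and as changed beyond 2-fold if the log2 change also exceeded 1. ICL1 did not pass at 0.075 h-1, with a log2 change of 0.09 ± 0.067 (SE; adjusted p = 0.38). It passed at 0.05 h-1 with 0.19 (adjusted p = 0.022), a call that was lost in the fits without 0.05 h-1 replicate 1 or 3 or without 0.1 h-1 replicate 2 or 3, with changes of 0.12 to 0.26 over all fits that left out a replicate. At 0.025 h-1 the change was 0.86 (adjusted p = 1.6e-10), or 1.81-fold, short of the 2-fold criterion. ADH2 passed in these 3 comparisons, with log2 changes of 0.18 ± 0.065 (SE; adjusted p = 0.049), 0.37 (adjusted p = 5.5e-05) and 0.68 (adjusted p = 3.8e-09). The first of these was lost in 17 of the 27 fits that left out a replicate, which included each replicate of 0.1 h-1 (0.14 to 0.22). Of all probes, 19.4% at 0.075 h-1, 48.1% at 0.05 h-1 and 63.7% at 0.025 h-1 passed the adjusted p value in either direction, and 0%, 0.242% and 1.42% passed with the 2-fold criterion, so that a change by p value alone was common.

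On the retentostat days both genes passed the adjusted p value, as did 78.2% of all probes at day 1 and, in the order of sampling, 82.4%, 83.5%, 84.1% and 84.3% at the later times. Beyond 2-fold, the shares of all probes in the same order were 10.3%, 16.7%, 19%, 20.2% and 20.8%. ICL1 was beyond 2-fold on all 5 days, with log2 changes of 1.75, 1.88, 1.93, 2.10 and 2.25 (SE 0.067 each). The 95% interval on day 23 was 2.11 to 2.39 and the adjusted p value was 1.5e-19. ADH2 was beyond 2-fold on day 3 alone, at 1.06 with a 95% interval of 0.93 to 1.20 that includes the criterion (adjusted p = 1.7e-13). Its change on day 5 was 0.99, just short of it, and 1.01 without day 5 replicate 3. The changes of ADH2 at the remaining times were 0.64 (day 1), 0.75 (day 16) and 0.61 (day 23) (SE 0.065 each). In a test against a change of 2-fold in place of 0, ICL1 passed on all 5 days and ADH2 on none.

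**Figure D2:**
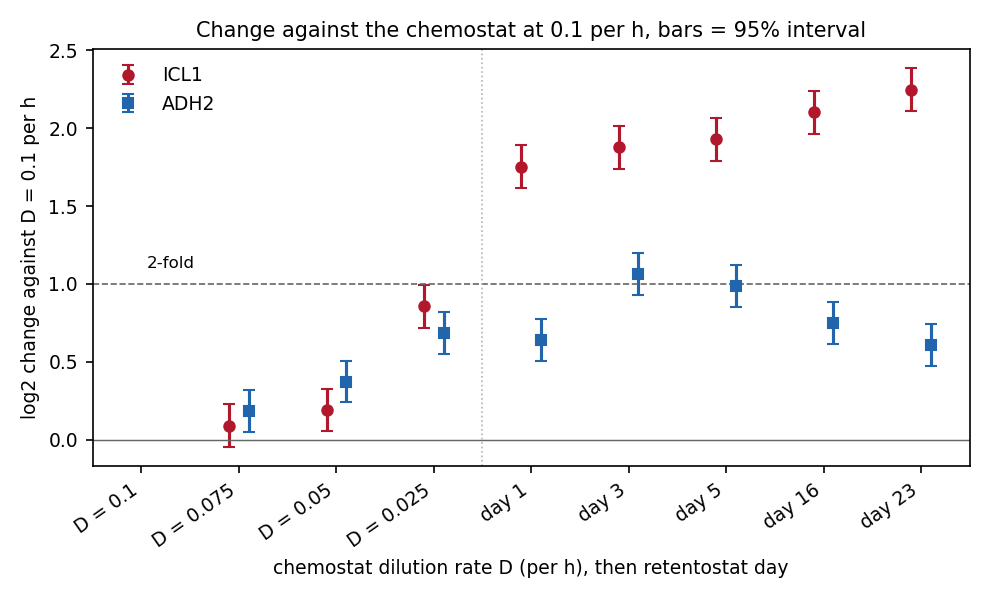
Log2 change of ICL1 and ADH2 against the chemostat at 0.1 h-1 (vertical axis) in the other 8 conditions (horizontal axis), with bars for the 95% interval of the limma fit on 27 replicates and a dashed line at 2-fold. ICL1 lies above the line on all 5 retentostat days, and ADH2 touches it on days 3 and 5.

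The place of the 2 genes in the distribution of all probes changed between the conditions. At 0.075 h-1, 492 probes had a larger log2 change than ADH2 and 1422 a larger one than ICL1, and at 0.05 h-1 the numbers were 440 for ADH2 and 1301 for ICL1. ICL1 ranked higher than ADH2 at 0.025 h-1 and on every retentostat day. On day 23, 62 probes had a larger log2 change than ICL1 and 1258 had a larger one than ADH2. On day 3 the numbers were 135 for ICL1 and 583 for ADH2, and in the chemostat at 0.025 h-1 they were 109 and 237. The medians of all probes were close to 0 (0.03 on day 3 and 0.06 on day 23). Over the 9 condition means ICL1 spanned 2.25 and ADH2 1.06, against a median span of 0.69 over all probes. The spread within conditions was ordinary for both genes, with a pooled SD of 0.084 for ICL1 and 0.081 for ADH2 against a median of 0.077.

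**Figure D3:**
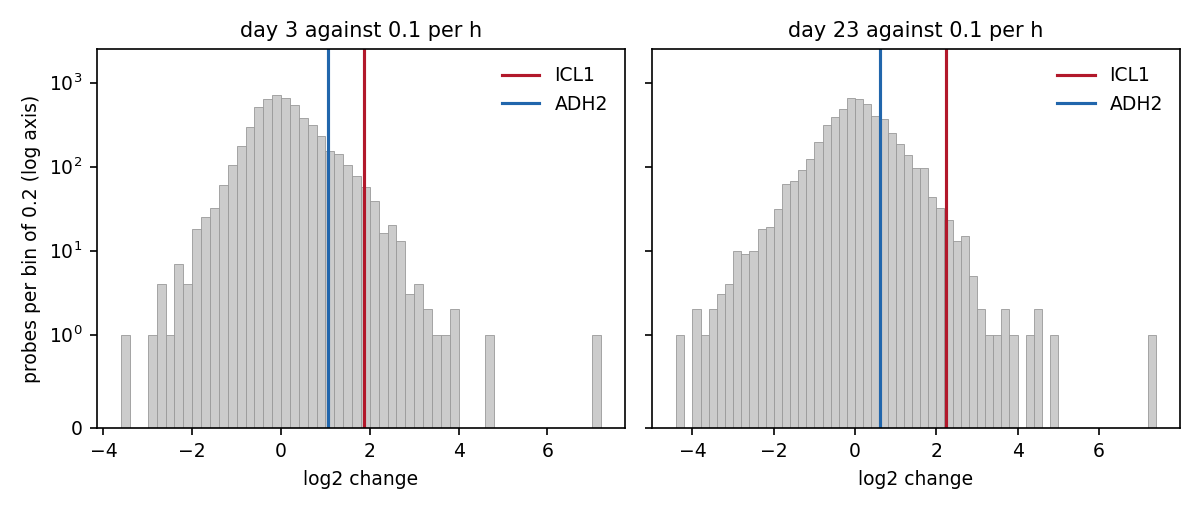
Number of probes (vertical axis, log scale) by log2 change against the chemostat at 0.1 h-1 (horizontal axis, bins of 0.2) on day 3 and day 23, with the changes of ICL1 and ADH2 as vertical lines. ICL1 lies toward the right tail on both days, at 1.88 and 2.25, and ADH2 moves from 1.06 on day 3 into the body of the distribution at 0.61 on day 23.

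The steps between neighboring conditions showed where each gene moved. ICL1 did not pass from 0.075 to 0.05 h-1 (0.10, adjusted p = 0.28), where its replicates overlapped and where 24.6% of all probes passed. It rose from 0.05 to 0.025 h-1 by 0.67 (adjusted p = 1.2e-07), and 40 of the 5371 probes rose more in this step, in which 46.5% of probes passed. ADH2 rose in both steps, by 0.19 (adjusted p = 0.036) and by 0.31 (adjusted p = 0.00045). Its first step did not pass without 0.05 h-1 replicate 1 or 3 or without 0.075 h-1 replicate 1 or 2 (0.15 to 0.23 over all such fits). Neither step of ADH2 passed with median centring (0.13 and 0.23, adjusted p = 0.35 and 0.0503) or on the arrays with the culture in Cy3 alone (0.21 and 0.26, adjusted p = 0.38 and 0.14). ICL1 had made 8.47% of its largest log2 change by 0.05 h-1 and 38.1% by 0.025 h-1, and ADH2 had made 35.1% and 64.4% of its own. With median centring in place of LOESS these shares were 10.3% and 39.9% for ICL1 and 21.0% and 47.6% for ADH2, so that the genes lay closer together.

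Between the chemostat at 0.025 h-1 and day 1 of the retentostat, where the culture system changed too, ICL1 rose by 0.90 (95% interval 0.76 to 1.03, adjusted p = 1.9e-10), its largest step. ADH2 did not pass in the same comparison, with -0.05 (95% interval -0.18 to 0.09, adjusted p = 0.56) and overlapping replicates. Of all probes, 58.1% passed. The sign of the small ADH2 value turned without 0.025 h-1 replicate 2 (0.01) and without day 1 replicate 1 (0.02).

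Within the retentostats, ADH2 rose from day 1 to day 3 by 0.42 (adjusted p = 1.4e-05), where 44.6% of all probes passed. ICL1 did not pass in that step, at 0.13 (adjusted p = 0.13), except without day 3 replicate 2 (0.21). Neither gene passed from day 3 to day 5, where 11.6% of probes did, with 0.05 for ICL1 (adjusted p = 0.67; -0.03 without day 3 replicate 2) and -0.08 for ADH2 (adjusted p = 0.46). From day 5 to day 16, where 40.6% of probes passed, ICL1 rose by 0.18 (adjusted p = 0.039) and ADH2 fell by 0.24 (adjusted p = 0.0056). The call of ICL1 was lost without any 1 of the 3 replicates of day 5 and without day 16 replicate 1 or 2 (0.14 to 0.21 over all such fits). That of ADH2 was lost on the arrays of either dye alone (-0.14 in Cy3, adjusted p = 0.48, and -0.33 in Cy5, adjusted p = 0.051), with dye and slide as terms (-0.18, adjusted p = 0.13) and in the authors' log2 values with reversed columns turned (-0.24, adjusted p = 0.15). From day 16 to day 23 neither passed, with 0.14 for ICL1 and -0.14 for ADH2 (adjusted p = 0.21 each). In this step 4.58% of probes passed. The replicates of the 2 days did not overlap for either gene, and the share of all probes without overlap was not counted.

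From day 1 to day 23 ICL1 rose by 0.50 (95% interval 0.36 to 0.63, adjusted p = 5.6e-07), whereas ADH2 showed no direction, at -0.03 (95% interval -0.16 to 0.10, adjusted p = 0.70). In this span 70.4% of all probes passed. The sign of the ADH2 value turned without day 1 replicate 2 (0.03). From day 3 to day 23, a comparison chosen after the values were seen because ADH2 was highest on day 3, ICL1 rose by 0.37 (adjusted p = 4.5e-05) and ADH2 fell by 0.45 (95% interval -0.59 to -0.32, adjusted p = 2.2e-06), or 1.37-fold. Here 63.1% of all probes passed.

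Trends within each system summarized the same values. On log2 dilution rate in the chemostats the slope was -0.43 ± 0.031 (SE; adjusted p = 4.6e-11) for ICL1 and -0.34 ± 0.030 (SE; adjusted p = 1.7e-09) for ADH2, which means that the log2 ratio rose by that much for each 2-fold drop in rate. With median centring the slope of ADH2 was -0.21 (adjusted p = 0.00018) and that of ICL1 -0.43. Of all probes, 65.5% had a slope that passed. On log2 run time in the retentostats the slope of ICL1 was 0.10 ± 0.012 (SE; adjusted p = 1.2e-07). ADH2 did not pass, at -0.02 (adjusted p = 0.085), with a rise and a fall within the 5 days, and it passed without day 1 replicate 1 or without day 3 replicate 2. The share of probes with a slope that passed was 74.7%.

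Ordered by level, ICL1 followed the order of the conditions, from 0.82 ± 0.036 (SD, n = 3) at 0.1 h-1 to 3.07 ± 0.066 (SD, n = 3) on day 23. Neighbors that overlapped in this order were 0.075 and 0.05 h-1, days 1 and 3, and days 3 and 5. The order of ADH2 was different. From the lowest it ran through 0.1, 0.075 and 0.05 h-1, then day 23, day 1, 0.025 h-1, day 16, day 5 and day 3, from -0.37 ± 0.019 (SD, n = 3) to 0.69 ± 0.099 (SD, n = 3). Day 23, day 1, the chemostat at 0.025 h-1 and day 16 each overlapped with the next in that order, as did days 5 and 3.

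The difference between the 2 genes was also taken within each replicate, which shares its arrays. At 0.1 h-1 the change of ICL1 and that of ADH2 are 0 by definition. ICL1 minus ADH2 was -0.09 at 0.075 h-1, -0.18 at 0.05 h-1 and 0.17 at 0.025 h-1. In the retentostats, in the order of sampling, it was 1.11, 0.82, 0.94, 1.35 and 1.64, so that the gap narrowed from day 1 to day 3 and then widened. In an exact two-sided permutation test of 3 against 3 replicates, p was 0.1 for 7 of these 8 comparisons and 0.2 at 0.025 h-1. The smallest p value this design allows is 0.1, which is 0.11 after Benjamini-Hochberg adjustment over the 17 comparisons computed, so no difference could pass. From day 3 to day 23 the gap grew by 0.82 (exact permutation p = 0.1). With median centring in place of LOESS, the differences at 0.075 and 0.05 h-1 turned to 0.04 each, and that at 0.025 h-1 became 0.45.

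**Figure D4:**
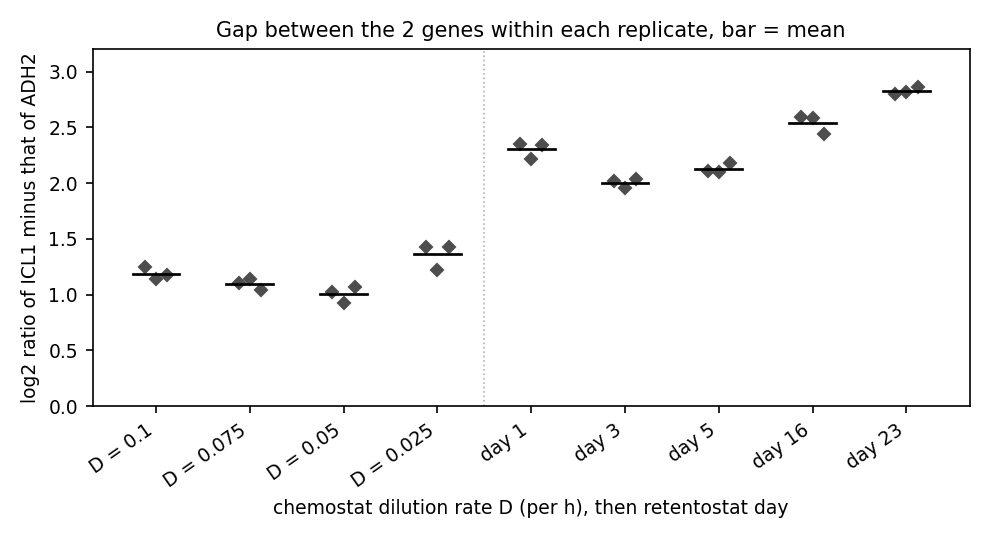
Log2 ratio of ICL1 minus log2 ratio of ADH2 within each replicate (vertical axis) in the 9 conditions (horizontal axis), with 1 point per replicate and a bar at the mean. Relative to 0.1 h-1 the gap was larger by 1.11 on day 1, by 0.82 on day 3 and by 1.64 on day 23.

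The choice of normalization bore on ADH2 far more than on ICL1. With median centring, which shifts each array by a constant and does not follow signal strength, the changes of ADH2 against 0.1 h-1 were 0.05, 0.18 and 0.41 in the slower chemostats and 0.34, 0.86, 0.79, 0.48 and 0.38 on the 5 days. The first 2 of these no longer passed (adjusted p = 0.79 and 0.12), and on day 3 ADH2 was no longer beyond 2-fold. ICL1 under the same setting was at 1.65, 1.82, 1.83, 2.02 and 2.16 on the 5 days. The log ratio of the scanner software, which has its own dye normalization, gave 1.14 on day 3 and 1.09 on day 5 for ADH2, so that both days were beyond 2-fold. The rise of ADH2 to day 3 and its fall to day 23 had the same direction in all 3. The brightest 53 probes, which include ADH2, had a median change on day 23 of 0.20 after LOESS and -0.02 after median centring. Their part in the change of ADH2 was not tested.

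**Figure D5:**
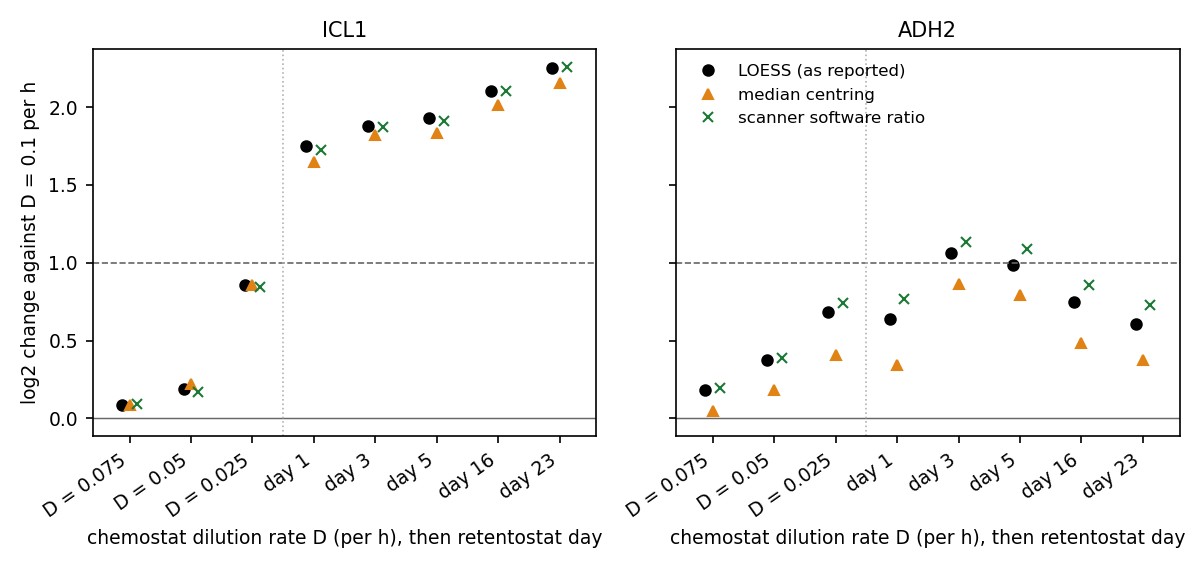
Log2 change against the chemostat at 0.1 h-1 (vertical axis) of ICL1 and ADH2 in the other 8 conditions (horizontal axis) under LOESS, median centring and the ratio of the scanner software, with a dashed line at 2-fold. The ICL1 values nearly coincide, whereas ADH2 on day 3 lies at 1.06, 0.86 and 1.14.

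Before normalization the spot signals showed a further difference. The median culture signal of ICL1 was 28146 at 0.1 h-1 and 51617 on day 23. That of ADH2 was 229398 at 0.1 h-1 and 148164 on day 23. The median culture signal of all probes was 5131 and 2252 in the same conditions, while that of the pool was 3441 and 3576. In the spots of ADH2 the median pool signal was 186107 at 0.1 h-1 and 237334 on day 23. In those of ICL1 it was 9488 and 9928. The unscaled culture signal of ADH2 thus fell, by a smaller factor than the median of all probes, while that of ICL1 rose. The rise of ADH2 after normalization is one relative to the bulk of the probes, not to each of them. The part of the higher pool signal in the spots of ADH2 was not tested.

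The log2 ratios of the genes also differed between the dye orientations, on average in opposite directions, and the cause was not tested. ICL1 was lower with the culture in Cy5 in all 27 pairs, by 0.29 ± 0.14 (SD). ADH2 was higher with the culture in Cy5 in 25 of 27 pairs, by 0.33 ± 0.26 (SD) and with a range of -0.47 to 0.91. Both ends of that range were at 0.1 h-1, the baseline of every change, where Cy5 minus Cy3 for ADH2 was -0.47, 0.84 and 0.91 in replicates 1, 2 and 3, against -0.07 to 0.59 in the other conditions. The 6 arrays of ADH2 at 0.1 h-1 thus spread from -0.81 to 0.10, although the means of the pairs had an SD of 0.019. Averaging a pair removes a dye difference only where it is constant. In the authors' log2 values some columns of 0.1 h-1 and day 3 matched arrays of other replicates best, so the pairs there are uncertain. On day 3 the change of ADH2 against 0.1 h-1 was 1.09 from the Cy3 arrays alone and 1.03 from the Cy5 arrays alone. On day 23 it was 0.65 and 0.57, and that of ICL1 was 2.19 and 2.30.

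The conditions were spread unevenly over the scan batches, and all arrays of day 23 fell in batch 1. In batch 1, which held 4 of the 6 arrays at 0.1 h-1, ICL1 changed by 1.86 on day 3 and 2.32 on day 23, and ADH2 by 1.16 and 0.78. From day 3 to day 23 within that batch ICL1 changed by 0.46 and ADH2 by -0.38. Batch 2 held 1 array at 0.1 h-1, with the culture in Cy5, so that the dye difference enters its values, which on day 3 were 1.93 for ICL1 and 0.67 for ADH2. In this batch ADH2 at 0.075 and 0.05 h-1 was below that array, by -0.28 and -0.10. Batch 3 held single arrays of 3 conditions, where day 3 exceeded 0.1 h-1 by 1.77 for ICL1 and 0.77 for ADH2. There 0.05 h-1, with the culture in Cy5 against Cy3 at 0.1 h-1, stood at -0.26 for ICL1, opposite in sign to the change over all arrays, and at 0.40 for ADH2. With dye and scan batch as terms in a fit of all arrays, ADH2 changed by 0.20 at 0.075 h-1 (adjusted p = 0.093), 1.05 on day 3 and 0.66 on day 23, and ICL1 changed by 1.86 on day 3 and 2.29 on day 23.

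The profiles of other genes were set beside the 2 by Pearson correlation over the 27 replicates, among the 5070 probes that every array measured well above background. These correlations are descriptions, since replicates share conditions, pool and slides. The profile most like that of ICL1 was that of PAS_chr3_0393 (r = 0.991), with log2 changes of 2.08 on day 3 and 2.18 on day 23, and the next 4 had r of 0.99 as well. Of the 5070 probes, 957 (18.9%) had r above 0.9 with ICL1. For ADH2 the most alike was PAS_chr2-2_0024 (r = 0.963), which changed by 1.55 on day 3 and by 0.97 on day 23, and the other 4 lay between 0.953 and 0.961. Only 145 probes (2.86%) had r above 0.9 with ADH2. Between ICL1 and ADH2 r was 0.94 over the 4 chemostat means, -0.36 over the 5 retentostat means and 0.82 over all 9. By Spearman correlation the list of 5 shared 1 probe with these for either gene, and by distance of profiles 1 for ICL1 and 3 for ADH2.

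Along the chromosome, in the gene order of the reference table of strain GS115, the gene listed next after ICL1 had a profile close to its own (r = 0.97 over 27 replicates), with log2 changes of 1.35 on day 1 and 2.71 on day 23 (adjusted p = 2.3e-17), and it was the most alike of all by Spearman correlation. The gene listed before ICL1 did not share its profile (r = -0.36), with a change of 0.11 on day 23 (adjusted p = 0.093). The locus tag number of that gene is not adjacent to that of ICL1, and whether another gene lies between them was not examined. The neighbors of ADH2 had r of 0.80 and 0.72 with it, and changes of 0.49 and 0.81 on day 23. A high r was common, since 18.9% of 5070 probes had r above 0.9 with ICL1. For r at the level of the ADH2 neighbors no share of all probes was computed. These neighbors were looked at after the values of the 2 genes were known.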

How the data were processed

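RNA of 9 conditions with 3 replicates each was hybridized with a reference pool on 54 arrays. The scanner output deposited by the authors holds median spot signals and local backgrounds as intensity values without normalization, and log10 ratios after the scanner software's own dye normalization (Feature Extraction 11.5.1.1). The authors also deposited log2 ratios per probe made with normexp, LOESS and Aquantile in limma. In these log2 values 18 of 54 columns ran opposite to the scanner output, so the scanner output was used, with the dyes of the labels. By absolute correlation, 19 columns matched another array better than their own. Where that array was not of the same replicate, the column was one of 0.1 h-1 or of day 3. Which record assigns these arrays correctly was not tested, so the dye pairs and SDs of these 2 conditions are uncertain. On all 54 arrays the channel labelled as pool resembled the averaged pool signals of the remaining arrays more than the culture channel did.

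Median signals were corrected with normexp (offset 50) and LOESS in limma 3.58.1 under R 4.3.3 (statmod 1.5.0). Aquantile leaves log2 ratios unchanged. The 536 control spots per array and outlier spots were left out, spots of a probe and pairs of arrays were averaged, and 9 condition means were fitted to 27 replicates (18 residual and 5.38 prior degrees of freedom) with eBayes and Benjamini-Hochberg adjustment. Calls used an adjusted p value below 0.05, with or without a change beyond 2-fold. Genes to be named were the members and the 5 most alike probes of each, of which only the first is printed, since no table used here pairs the identifiers with names. The member names were taken from the list that defined the pair. For the same reason lists of other genes of 2-carbon metabolism could not be matched and were not tested. The 2 members matched locus tags of the RefSeq annotation (assembly ASM2700v1), as did 5040 of 5318 systematic names, and since the files name no genome build, no coordinates are given. The members and lists were chosen with earlier results of these data known. The alternatives are given with their effects in the closing section. The procedure was tested on simulated data. Shares under other scalings were added after the values were seen.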

Additional observations from a re-analysis of the deposited data

How the results depend on the processing

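The calls of ICL1 beyond 2-fold on all 5 retentostat days were made under every alternative except the authors' log2 table as deposited. That of ADH2 on day 3 was lost with median centring (0.86), in that table and in a test against a 2-fold change (1.06, adjusted p = 1). Changes below are log2 and, unless stated otherwise, against 0.1 h-1, and the cause of the differences was not tested.

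With median centring ADH2 no longer passed at 0.075 h-1 (0.049), at 0.05 h-1 (0.18), from 0.075 to 0.05 h-1 (0.13) and from 0.05 to 0.025 h-1 (0.23), nor did ICL1 from day 5 to day 16 (0.19). ADH2 from day 1 to day 23 turned to 0.033, the chemostat slope of ADH2 became -0.21, and ICL1 minus ADH2 turned to 0.037 at 0.075 h-1 and 0.040 at 0.05 h-1. The scanner software's ratio put ADH2 on day 5 beyond 2-fold (1.09) and turned ADH2 from 0.025 h-1 to day 1 (0.022). Without the normexp offset ADH2 at 0.075 h-1 missed the threshold (0.18).

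From the Cy3 arrays alone ICL1 did not pass at 0.05 h-1 (0.18) or from day 5 to day 16 (0.13). ADH2 did not pass at 0.075 h-1 (0.23) or in the steps from 0.075 to 0.05 (0.21), 0.05 to 0.025 h-1 (0.26), day 1 to 3 (0.31) and day 5 to 16 (-0.14), and 0.025 h-1 to day 1 turned to 0.083. From the Cy5 arrays alone ICL1 did not pass at 0.05 h-1 (0.20) or from day 5 to 16 (0.22). ADH2 did not pass at 0.075 h-1 (0.14), at 0.05 h-1 (0.31), from 0.075 to 0.05 h-1 (0.17) or from day 5 to 16 (-0.33), and day 1 to 23 turned to 0.074. These fits hold 1 array per replicate.

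With dye and slide as terms ADH2 did not pass at 0.075 h-1 (0.26), from 0.075 to 0.05 h-1 (0.14) or from day 5 to 16 (-0.18), and on day 5 it was beyond 2-fold (1.02). With dye and scan batch the values were 0.20 at 0.075 h-1 and 0.16 from 0.075 to 0.05 h-1, neither of which passed, and 1.01 on day 5. With the replicate number as a block ADH2 at 0.075 h-1 missed the threshold (0.18, adjusted p = 0.061) and no other call changed. The numbers were not taken as pairing the samples, since deviations of same-numbered samples had mean correlations of -0.0022, 0.035 and 0.015 over all conditions, which does not show which samples share a vessel. Fitted on only the 2 conditions compared, ICL1 at 0.05 h-1 (0.19, adjusted p = 0.0535) and ADH2 from 0.075 to 0.05 h-1 (0.19, adjusted p = 0.0503) missed it. Without the 2-fold criterion ICL1 was also called at 0.05 h-1 (0.19) and 0.025 h-1 (0.86), and ADH2 in all other conditions (0.18, 0.37, 0.68, 0.64, 0.99, 0.75 and 0.61 in the order of conditions without day 3).

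In the authors' table as deposited, with its 18 reversed columns, ICL1 stood at 0.72 at 0.05 h-1, 1.39 at 0.025 h-1, and -2.86, -1.14, 0.61, 0.64 and 2.76 over the retentostat times, with 0.67 from 0.05 to 0.025 h-1, 0.028 from day 5 to 16, -4.25 from 0.025 h-1 to day 1 and a chemostat slope of -0.75. ADH2 stood at 0.052, 0.12 and 0.43 in the chemostats and -0.15, -0.091, 0.28, 0.24 and 0.36 over the retentostat times. Its steps were 0.068 (0.075 to 0.05 h-1), 0.31 (0.05 to 0.025 h-1), 0.058 (day 1 to 3), 0.38 (day 3 to 5), -0.046 (day 5 to 16), 0.12 (day 16 to 23), 0.50 (day 1 to 23) and 0.45 (day 3 to 23), and its slopes -0.21 and 0.11. With those columns turned, an alternative added after the data were seen, directions returned, and ICL1 from day 5 to 16 (0.17) and ADH2 at 0.075 h-1 (0.18), from 0.075 to 0.05 h-1 (0.19), from 0.05 to 0.025 h-1 (0.31) and from day 5 to 16 (-0.24) did not pass.

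Leaving out 1 replicate at a time, the values ranged as follows where a call or sign changed. ICL1 lay between 0.12 and 0.26 at 0.05 h-1, 0.086 and 0.21 from day 1 to 3, -0.032 and 0.090 from day 3 to 5, and 0.14 and 0.21 from day 5 to 16. ADH2 lay between 0.14 and 0.22 at 0.075 h-1, 0.96 and 1.01 on day 5, 0.15 and 0.23 from 0.075 to 0.05 h-1, -0.090 and 0.034 from day 1 to 23, -0.12 and 0.016 from 0.025 h-1 to day 1, and its retentostat slope between -0.034 and -0.012. Signals of both genes were well above background on all arrays, and the changes of ADH2, among the brightest probes, depended on the normalization.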
